A study of Brassica napus with 12 samples.

Results

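The 93 genes described here are those of rapeseed, Brassica napus, whose transcript levels rose most strongly in young seedlings held under water, in both of the germplasm pools that were studied. They were chosen from the measured values: among the 96921 genes with an identifier on an A or C chromosome, the mean of log2(RPKM + 1) had to be at least 3 higher in the 3 submerged than in the 3 control libraries of each pool. RPKM is the number of reads scaled to the length of the gene and to the mapped reads of the library, so levels of different genes can be compared. The samples were whole seedlings of about a week, with flat cotyledons and the first true leaf just formed, from a pool of germplasm labelled resistant and a pool labelled susceptible to submergence. Each pool mixed equal amounts of seedlings of 5 germplasm, and the resistant control, resistant submerged, susceptible control and susceptible submerged groups had 3 biological replicates each, 12 libraries in all. Submerged seedlings had been fully covered with distilled water for 24 h, and control seedlings had been grown on in normal conditions. A replicate is thus a mixture, and neither single germplasm nor single tissues were measured, so fewer cells of a type and less RNA per cell cannot be told apart.

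Under water, gases diffuse slowly, and a covered plant soon runs short of oxygen and of carbon dioxide while ethylene builds up in its tissues. In Arabidopsis, a close relative of rapeseed, ERF transcription factors that oxygen normally marks for degradation become stable under these conditions and switch on a set of genes for fermentation and for the use of stored sugar. Rapeseed is an allotetraploid and carries an A and a C subgenome, so many genes exist in an A and a C copy, and reads that fit both copies can be split or lost. None of the identifiers of the table (0 matches) is paired with a gene name in the reference used here, so the members are given by identifier with no role, and no list of known oxygen-responsive genes could be counted. No sequence is shown for the same reason.

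The 12 libraries had similar depth, between 0.638 and 1 of the deepest one as judged from the spacing of the lowest values; absolute depth is not known. Of the 109614 genes listed, 57391 reached at least 1 RPKM in at least 3 libraries and were tested, and 52294 of these lay on A or C chromosomes. All 93 members passed this minimum. The 28 that averaged under 1 RPKM in the controls of both pools did so mostly or only through their submerged libraries. In susceptible controls, 61 members averaged at least 1 RPKM. Over the tested genes as a whole, submergence shifted the median by -0.22 log2 units for the resistant pool and by -0.19 for the susceptible one, or by -0.09 and -0.03 once libraries were scaled by median ratios.

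Before submergence most members were weakly expressed, and under water they stood well above the typical gene. The median member was at 1.40 RPKM in resistant and 2.06 RPKM in susceptible controls, against 5.93 and 5.52 RPKM for all tested A and C genes. After submergence the medians of the members were 44.6 and 49.8 RPKM, while those of all tested A and C genes were 5.09 and 4.74 RPKM. In controls, 28 members averaged under 1 RPKM in both pools, 7 averaged at least 10 RPKM in both, and 58 lay between. Under water, 12 members averaged at least 100 RPKM in both pools and 17 stayed under 20 RPKM in both. The group means of members ran from 8.38 to 663 RPKM in resistant and from 9.098 to 574 RPKM in susceptible submerged seedlings. Together the members held 0.0403% ± 0.00513 (SD, n = 3) of the summed RPKM in the libraries of unsubmerged resistant seedlings, and 0.811% ± 0.0844 (SD, n = 3) in those of submerged ones. For susceptible seedlings this share was 0.0673% ± 0.0242 (SD, n = 3) without and 0.981% ± 0.0527 (SD, n = 3) with submergence. These levels follow from the way the members were chosen and are a description.

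**Figure D1:**
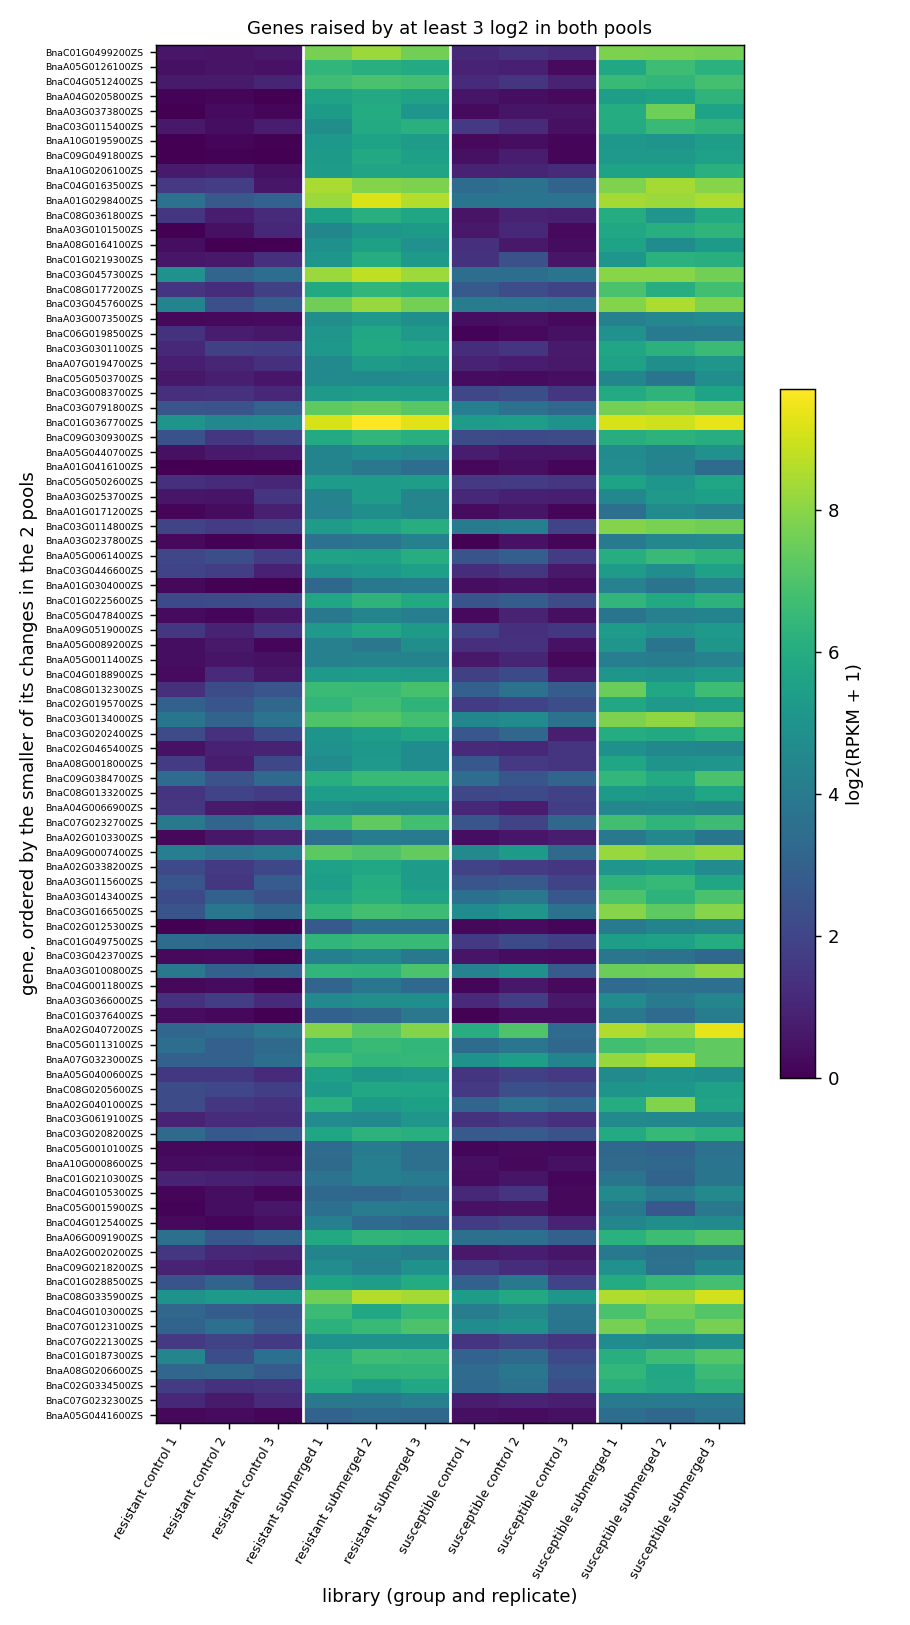
Level of each of the 93 members (rows, ordered by the smaller of their changes in the 2 pools) in each of the 12 libraries (columns), as log2(RPKM + 1) on the colour scale. The columns of the 6 submerged libraries are brighter than those of the 6 controls in every row, and the rows differ in level from 8.38 to 663 RPKM after resistant submergence.

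In all 93 members the lowest of the 6 submerged libraries stood above the highest of the 6 controls, which was the case for 7.52% of all tested genes. The 93 were also called higher in both pools (limma, Benjamini-Hochberg adjusted p under 0.05), against 11.9% of tested genes called higher for resistant and 12% for susceptible seedlings; 0 members were called lower, against 26.7% and 28.6% of tested genes. With median ratio scaling the tested genes called higher were 15.7% and 16.5%, and those called lower 17.5% and 19.05%. Both counts use the contrasts that chose the members and carry no further evidence. Resistant seedlings had a median change of 3.76, with members from 3.01 to 7.28, and susceptible seedlings one of 3.59, with members from 3.02 to 6.54. In 21 members the smaller of both changes was at least 4, in 6 at least 5, and in 1 at least 6.

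BnaC01G0499200ZS, on C01, had the largest changes, 7.28 for resistant and 6.54 for susceptible seedlings. Its level was 0.485, 0.437 and 0.584 RPKM in resistant controls and 207, 304 and 199 RPKM after submergence. In the susceptible pool it went from 1.14, 1.58 and 1.21 to 219.9, 217 and 204 RPKM. The submerged libraries of both pools overlapped in level, while the 3 susceptible controls were all above the 3 resistant controls. BnaC04G0512400ZS, on C04, reached a lower level under water than BnaC01G0499200ZS, and its controls overlapped between pools. It was at 0.636, 0.626 and 1.01 RPKM in resistant controls and 106, 120.2 and 112 RPKM under water. Its susceptible libraries were at 1.21, 1.79 and 0.878 and then 91.5, 83.5 and 114 RPKM, and changes were 6.02 and 5.41. Both genes were thus low in every control, and their pools overlapped under water.

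BnaA05G0126100ZS, on A05, was at 0.341, 0.412 and 0.381 RPKM in resistant and 0.884, 0.825 and 0.229 RPKM in susceptible controls. After submergence it was at 81.8, 69.4 and 60.4 RPKM in the resistant and 53.95, 103 and 72.6 RPKM in the susceptible pool. The pools overlapped in both conditions, and the changes of 5.69 and 5.53 were close to each other. BnaA10G0206100ZS, on A10, likewise overlapped between the pools under water, at 39.6, 49.8 and 49.6 RPKM in resistant and 48.3, 48.8 and 70.4 RPKM in susceptible libraries. Its controls were at 0.641, 0.756 and 0.362 and 0.961, 1.02 and 1.26 RPKM, the susceptible ones all higher.

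Some of these genes were at or next to 0 before submergence. BnaA04G0205800ZS was at 0.0803, 0.119 and 0 RPKM in resistant controls and at 46.8, 56.7 and 46.5 RPKM under water. BnaC09G0491800ZS, listed at 0, 0.0367 and 0 RPKM in resistant controls, reached 38.5, 58.5 and 43.7 RPKM. BnaA10G0195900ZS was listed at 0, 0.106 and 0.03603 RPKM in resistant controls and stood at 35.4, 46.8 and 40.1 RPKM after submergence. In susceptible controls the 3 genes were low but above 0 in every library, at 0.467, 0.285 and 0.189 RPKM for the first, 0.343, 0.686 and 0.0897 RPKM for the second and 0.1902, 0.296 and 0.137 RPKM for the last. Under water their susceptible values were 41.8, 48.4 and 78.8 RPKM, 36.4, 35.8 and 46.4 RPKM and 35.4, 31.6 and 41.2 RPKM. Of the 279 member values in resistant controls 15 (5.38%) were listed at 0, and of the 279 in susceptible controls 0 were. Over all tested genes, which were at a higher level, 0.587% of the values in resistant and 0.746% of those in susceptible controls were listed at 0. The resistant zeros numbered 6, 1 and 8 in controls 1, 2 and 3, whose relative depths were 1, 0.847 and 0.638, and the susceptible controls had relative depths of 0.727 to 0.785; the part of depth in the zeros was not tested. In all, 12 members were listed at 0 in at least 1 control, 9 of them in 1 library and 3 in 2 libraries, and none in any submerged library. Besides BnaC09G0491800ZS, the members at 0 in 2 resistant controls were BnaA08G0164100ZS, which stood at 28.3, 44.8 and 29.1 RPKM in resistant submerged seedlings, and BnaC02G0125300ZS, which stood at 5.73, 10.7 and 10.6 RPKM there.

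**Figure D2:**
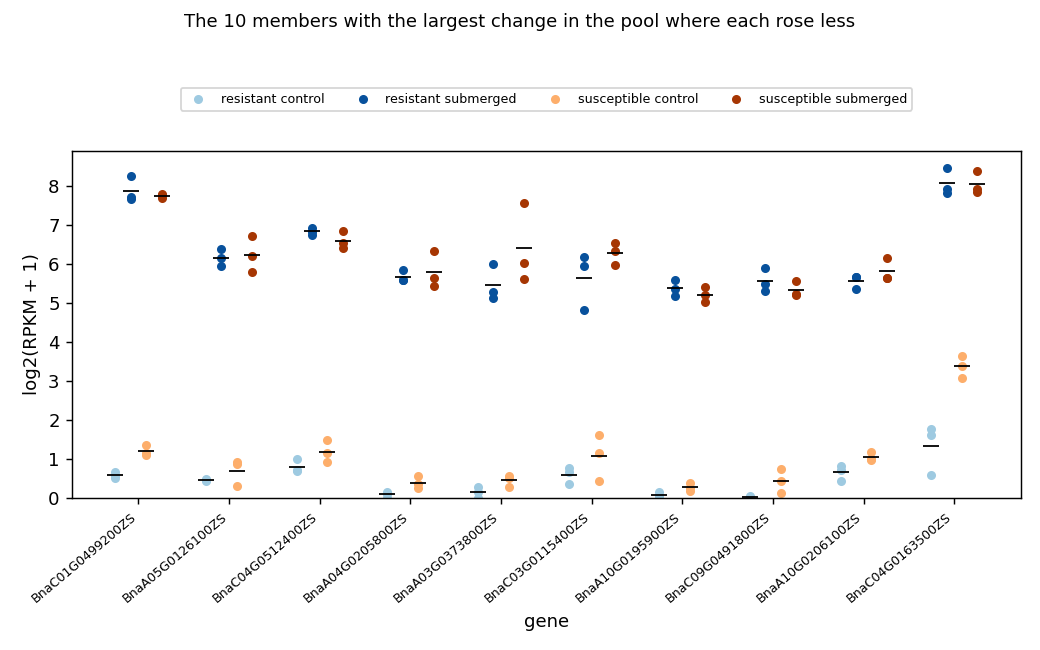
Levels in log2(RPKM + 1) of the 10 members with the largest change in the pool where each rose less; points are libraries, coloured by group, and black dashes are the means of 3 libraries. Submerged points lie clear of control points for each gene, and for BnaC04G0163500ZS the susceptible controls (7.48 to 11.5 RPKM) lie above the resistant ones (0.497 to 2.42 RPKM) while the submerged pools overlap.

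The most abundant members under water were partly genes that were already well expressed in controls. BnaC01G0367700ZS, on C01, reached 547, 831 and 611 RPKM in resistant and 551, 516 and 654 RPKM in susceptible submerged seedlings. Its controls were at 31.4, 22.2 and 23.05 RPKM and 40.1, 40.7 and 29.9 RPKM. It was the member with the highest mean level in submerged seedlings and among the highest 3 in controls. BnaA01G0298400ZS, on A01, went from 11.2, 5.47 and 7.22 to 305, 568 and 386 RPKM in resistant seedlings. In the susceptible pool it went from 12.6, 12.7 and 11.8 to 336, 302 and 365 RPKM, so its submerged libraries again overlapped between pools. BnaC08G0335900ZS, on C08, changed by 3.06 and 3.22, from 29.8, 37.1 and 36.2 to 196, 379 and 338 RPKM in the resistant pool. Its susceptible libraries went from 39.98, 56.7 and 33.97 to 377, 335 and 522 RPKM. BnaC03G0457300ZS, on C03, was uneven among resistant controls, with 28.8, 8.03 and 10.5 RPKM, and stood at 299, 436 and 308 RPKM after submergence, all above the susceptible submerged libraries. In the susceptible pool its values were 10.5, 10.3 and 12.6 and 251, 253 and 199 RPKM. The remaining one of the 5 most abundant, BnaA02G0407200ZS, is taken up with the spread between libraries. These 5 genes made up 28.7% of the members' summed RPKM in resistant and 24.0% in susceptible submerged seedlings.

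At the limit of 3 the choice is a matter of small differences. The members just inside were BnaA05G0441600ZS, with changes of 3.01 and 3.11, BnaC07G0232300ZS, with 3.02 and 3.15, and BnaC02G0334500ZS, with 4.18 and 3.02 (resistant pool first in each case). Just outside were BnaC09G0515300ZS, with changes of 3.62 and 2.998, BnaA06G0175400ZS, with 3.15 and 2.996, and BnaA02G0229200ZS, with 2.98 and 3.46. The number of members also depends on the constant added before taking logarithms, since 1 RPKM dampens the change of genes that are near 0 in controls: with 0.1 RPKM in its place, 270 genes reached the limit, the 93 members among them.

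The rise was compared in libraries that had no part in choosing the genes. The pools share no library, so genes chosen in 1 pool can be read in the other. Of the 207 A and C genes with a change of at least 3 in the resistant pool, 197 changed by at least 1 in the susceptible pool, 9 by 0 to 1, and 1 was lower. The median change there was 2.88, against -0.19 for all tested A and C genes, of which 6.22% changed by at least 1. In the susceptible pool 196 of the 207 were called higher, against 12% of tested genes, and 0 lower (limma, Benjamini-Hochberg adjusted p under 0.05). Of the 166 genes chosen in the susceptible pool, 161 changed by at least 1 in the resistant pool, 4 by 0 to 1, and 1 was lower. Their median change was 3.13, against -0.21 for all tested A and C genes, and limma called 160 of them higher there, against 11.9% of tested genes, with 0 called lower. The 93 members are 44.9% of the first and 56.0% of the second list. The other chosen genes mostly rose in the pool read as well, by less than 3.

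**Figure D3:**
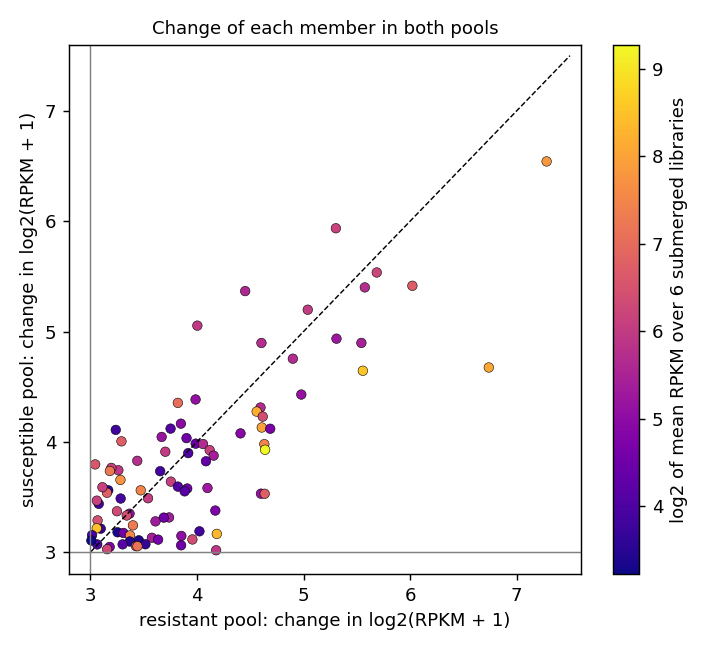
Change of each of the 93 members, as difference of mean log2(RPKM + 1) between submerged and control libraries, in the resistant (x) and the susceptible pool (y); colour gives the log2 of the mean RPKM over the 6 submerged libraries, the dashed line equal changes and the grey lines the limit of 3. The points follow the dashed line, with 87 of 93 less than 1 away from it and BnaC04G0163500ZS, at 6.74 and 4.67, the farthest. Genes with a change of at least 3 in 1 pool only were left out by the choice and are not shown.

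Genes were also chosen on 2 replicates of each group and read in the third. For the first replicate, 105 genes were chosen, 88 of them members, and 103 changed by at least 2 in both pools in the libraries left out. For the second replicate, 107 were chosen, 80 of them members, and 92 changed by at least 2 in both pools. Reading the third, 78 were chosen, 70 of them members, and 74 changed by at least 2 in both pools. Among all tested A and C genes the share with such a change in both pools ran from 0.847% to 1.21% over the replicates. The limit of 3 itself was reached again by 64, 53 and 62 of the chosen genes, in the same order. Held-out changes were therefore large for most genes, although many fell back below the limit that chose them.

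For most members the changes of both pools lay close together. The choice left out genes with a change of at least 3 in 1 pool only, so part of this closeness may follow from it. The change was larger in the resistant pool in 58 members and larger in the susceptible pool in 35, with a median difference of 0.15, and in 87 members the changes lay within 1 of each other. A test of the difference in response called 0 members (limma, adjusted p under 0.05), against 0.192% of tested genes called with a higher and 0.141% with a lower response in the resistant pool, while 16 members had an unadjusted p under 0.05, against 13% of tested genes. The choice demanded a high change in both pools, so nothing is read from that count. BnaC04G0163500ZS, on C04, had the largest difference between its changes, 2.06 ± 0.43 (SE; limma adjusted p = 0.0806), and after quantile normalization it was the 1 member called. Its submerged libraries were alike, at 352, 239 and 222 RPKM in resistant and 227, 332 and 242 RPKM in susceptible seedlings. Its controls were not, at 2.03, 2.42 and 0.497 RPKM in resistant and 9.49, 11.5 and 7.48 RPKM in susceptible seedlings. The other members whose changes differed by at least 1 were BnaC03G0301100ZS (4.00 and 5.05), BnaC04G0188900ZS (4.60 and 3.53), BnaC08G0132300ZS (4.64 and 3.53), BnaA02G0407200ZS (4.19 and 3.17) and BnaC02G0334500ZS (4.18 and 3.02), with the change of the resistant pool first. Of these, BnaC03G0301100ZS was named after its values were seen.

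The level of some members differed between the pools. The mean of the resistant minus the susceptible level over both treatments weighs controls and submerged libraries alike, whereas the choice set them against each other. This contrast is independent of the choice only if control and submerged libraries spread equally. It was called for 25 members: 6 were higher in the resistant and 19 higher in the susceptible pool (limma, Benjamini-Hochberg adjusted p under 0.05). These are 6.45% and 20.4% of the members. Among all tested genes the balance lay the other way, with 21.1% called higher in the resistant and 8.93% called higher in the susceptible pool. That balance was narrower after scaling, at 16.1% and 11.8% of tested genes with median ratios, where 5 and 23 members were called, and at 15.5% and 10.9% with quantile normalization, where 6 and 18 were. The median of this pool difference was -0.21 over the members and 0.079 over all tested genes; it was -0.25 and 0.014 with median ratio scaling and -0.20 and 0.018 with quantile normalization. Over the alternatives, 4 to 7 members were called higher in the resistant and 13 to 26 higher in the susceptible pool, the latter 13 without a filter on low values and 26 either without the third susceptible control or with 0.1 RPKM added. Whether germplasm or resistance underlies a pool difference cannot be told apart, since each label stands for 1 pool.

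Members with higher levels in the resistant pool were led by BnaC01G0497500ZS, on C01. It was at 9.77, 8.803 and 8.05 RPKM in resistant and 2.15, 3.58 and 2.45 RPKM in susceptible controls. After submergence its values were 83.3, 93.2 and 91.7 RPKM and 40.7, 45.7 and 63.04 RPKM. The pools did not overlap in either condition, and the mean pool difference was 1.14 ± 0.13 (SE; limma adjusted p = 0.000102). BnaC02G0195700ZS, on C02, showed the same arrangement, with 7.16, 5.01 and 8.23 RPKM against 2.18, 2.89 and 3.84 RPKM in controls. Under water it was at 82.8, 105 and 79.1 RPKM against 54.5, 35.7 and 40.7 RPKM, a mean pool difference of 0.997 ± 0.15 (SE; limma adjusted p = 0.000826). For BnaC06G0198500ZS, on C06, the resistant libraries were again all above the susceptible ones, at 31.96, 53.6 and 36.1 RPKM against 28.7, 15.3 and 16.1 RPKM under water. In controls it was at 1.69, 0.669 and 0.5497 RPKM against 0.0753, 0.198 and 0.345 RPKM (mean difference 0.84 ± 0.20, SE; limma adjusted p = 0.0084). BnaC07G0232700ZS, on C07, was called higher in resistant controls with 14.1, 8.02 and 11.98 RPKM against 4.87, 3.02 and 8.22 RPKM; the third susceptible control lay within the resistant range, and the call was lost in 12 of 19 alternatives.

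The largest differences in the other direction were in BnaC03G0114800ZS and BnaA07G0323000ZS. BnaC03G0114800ZS, on C03, was at 40.4, 49.8 and 64.9 RPKM in resistant and 237, 211 and 191 RPKM in susceptible submerged seedlings. Its controls were at 2.94, 2.31 and 2.77 RPKM and 15.1, 17.3 and 2.84 RPKM, so that the third susceptible control fell among the resistant ones. The mean pool difference was -1.77 ± 0.32 (SE; limma adjusted p = 0.00226). BnaA07G0323000ZS, on A07, had separate pools in both conditions, with 6.96, 7.098 and 10.3 RPKM against 29.5, 41.01 and 19.7 RPKM in controls. Under water it was at 107, 83.7 and 86.9 RPKM against 283, 401 and 162 RPKM, a mean pool difference of -1.62 ± 0.23 (SE; limma adjusted p = 0.000483). Both genes and the first 3 resistant-side genes named for the mean difference kept that call in each of 18 alternatives.

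**Figure D4:**
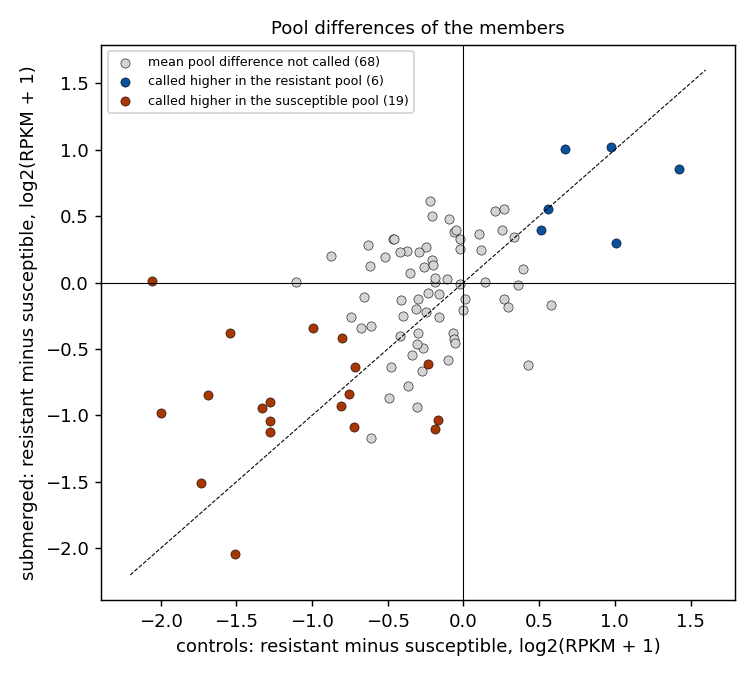
Resistant minus susceptible level of each of the 93 members in controls (x) and after submergence (y), as difference of mean log2(RPKM + 1); blue and brown mark the 6 and 19 members whose mean pool difference was called, and the dashed line marks equal differences. Most called members lie towards the lower left, higher in the susceptible pool in both conditions, and BnaC04G0163500ZS stands at the far left next to 0 on the y axis.

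Within controls alone, 4 members were called higher in the resistant pool, against 10.9% of tested genes, and 12 higher in the susceptible pool, against 5.02% of tested genes (limma, adjusted p under 0.05). The control means compared here also enter the choice of members, so the choice may have moved these counts. The split was 2 and 14 with quantile normalization, against 8.54% and 6.51% of tested genes. Counted without a test, all resistant controls lay above all susceptible ones in 6 members and below them in 26, against 21.8% and 10.5% of tested genes. The called numbers moved with single libraries, for members and for tested genes as a whole. Without the third susceptible control 20 members were called higher in the susceptible pool, against 5.73% of tested genes, and without the second 6, against 3.20%. There were 7 each without the first susceptible or the third resistant control, against 3.12% and 2.99%. Members called higher in the resistant pool numbered 1 without the first susceptible control, against 6.46% of tested genes. They numbered 2 each without the second susceptible, the first resistant or the third resistant control, against 7.40%, 6.17% and 7.13%. BnaA02G0401000ZS, on A02, was among the called genes at 3.65, 1.89 and 1.59 RPKM in resistant and 8.05, 12.02 and 8.84 RPKM in susceptible controls (difference -1.69 ± 0.48, SE; limma adjusted p = 0.0355, from 0.00297 to 0.109 over its alternatives). BnaC04G0163500ZS had the largest difference, -2.05 ± 0.30 (SE; limma adjusted p = 0.00125).

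Under water, 7 members were called higher in each pool (limma, adjusted p under 0.05), against 11.7% of tested genes higher in the resistant and 4.67% higher in the susceptible pool. As in controls, the means compared here also enter the choice, which may have moved these counts. With median ratio scaling the split was 3 and 9, against 9.30% and 6.37% of tested genes. Submerged libraries of the pools did not overlap in 11 members higher in the resistant and 18 higher in the susceptible seedlings, against 26.5% and 12.3% of tested genes. The third susceptible control takes part only through the shared spread and the set of genes tested. Without it, 15 members were called higher in the susceptible pool, against 5.47% of tested genes. That number was 3 without the first or the second resistant submerged library, against 2.46% and 2.67%. It was 4 without the first susceptible submerged one, against 2.71%. Members called higher in the resistant pool numbered 2 without the second resistant or the second susceptible submerged library, against 7.11% and 9.83% of tested genes. They numbered 3 without the first resistant or the third susceptible one, against 6.34% and 9.81%, and 4 without the third resistant one, against 5.91%. BnaA03G0101500ZS, on A03, was called higher in the susceptible pool, with 20.9, 33.6 and 38.3 RPKM in resistant and 53.3, 66.04 and 79.97 RPKM in susceptible submerged seedlings, and lost the call in 7 of 19 alternatives. In both conditions, 3 members were called higher in the resistant and 4 higher in the susceptible pool, and 0 were called in opposite directions, against 5.05%, 1.97% and 0.0784% of tested genes.

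Replicates of the same group were not equally high across the members. In the third susceptible control 66 of the 93 members had their lowest value of the 3 susceptible controls, against 28.1% of all tested genes, and in the second susceptible control 64 had their highest, against 32.8%. The members' median deviation from the group mean was -0.20 in the third and 0.18 in the second susceptible control, where all tested genes stood at 0.037 and -0.0089. Of the 61 members that averaged at least 1 RPKM in susceptible controls, 47 were lowest in the third and 44 highest in the second. The summed RPKM of the members was 581, 757 and 350 in the 3 susceptible controls, and 393, 298 and 332 in the resistant ones. Under water the first resistant library was lowest for 58 members, against 35.1% of tested genes, and the second highest for 56, against 32.9%. Among susceptible submerged libraries the second was lowest for 47 members, against 38.4% of tested genes, and the third highest for 43, against 40.4%. Relative depth was 0.727, 0.767 and 0.785 in the susceptible controls, and its part in these deviations was not tested.

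The second and the third susceptible control deviated in the same sense for genes with a smaller rise, so that pattern is not particular to the members. Among tested A and C genes the third susceptible control was the lowest of 3 for 27.1% of the 49965 genes whose smaller change was under 1. That share was 51.7% of the 1852 genes with a smaller change of 1 to 2, 59.4% of the 384 with 2 to 3, and 71.0% of the members. For the 31 genes that were lowered by at least 3 in both pools, the third susceptible control was the highest of 3 in 58.1% and their median deviation there was 0.34. It was the highest of 3 for 42.1% of all tested genes and for 43.7% of the genes whose smaller change was under 1. Among genes lowered by 1 to 2 and by 2 to 3 in both pools, it was the highest for 45.0% and 47.3%. The means of these controls enter the choice of the genes. The deviations from those means are independent of the choice only if the 3 controls spread equally. The choice gave 83 members without the third susceptible control and 105 without the second.

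**Figure D5:**
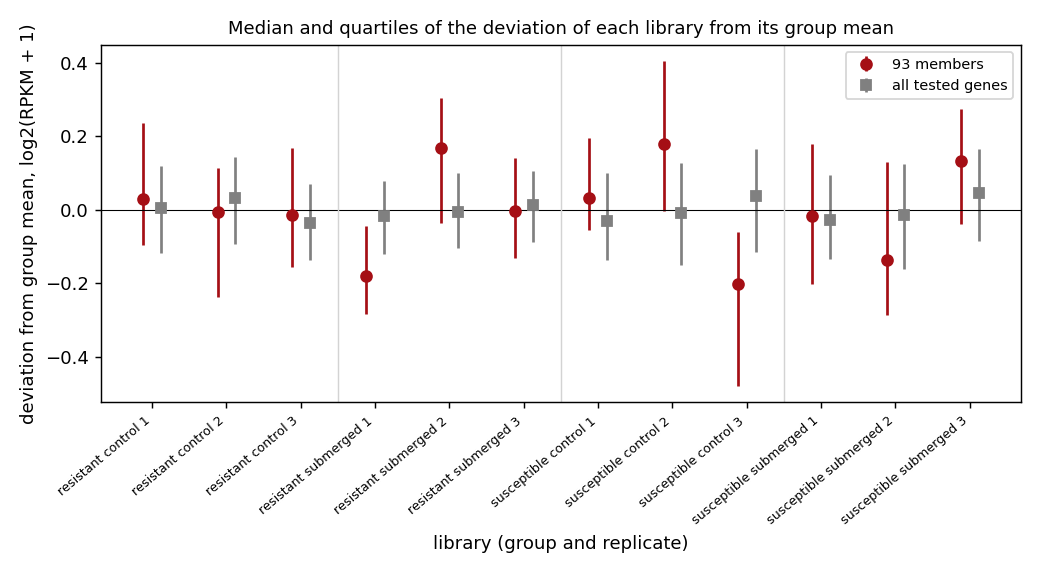
Deviation of each library from the mean of its group, in log2(RPKM + 1): median (point) and quartiles (bar) over the 93 members in red and over all tested genes in grey. The members' medians are 0.18 in the second and -0.20 in the third susceptible control and -0.18 in the first and 0.17 in the second resistant submerged library, while the grey points reach at most 0.0451.

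Single members varied by more than this. BnaA02G0407200ZS, on A02 and the fourth most abundant member under water, measured 64.8, 128 and 9.38 RPKM across its susceptible controls, a range of 3.64 log2 units and the widest of any member there. Its resistant controls were at 8.105, 9.59 and 13.3 RPKM, so the third susceptible control lay with them and the other susceptible controls far above. After submergence it stood at 236, 145 and 240.4 RPKM in resistant and 369, 266 and 643 RPKM in susceptible seedlings. Its mean pool difference of -1.49 ± 0.50 (SE; limma adjusted p = 0.0442) lost the call in 13 of 18 alternatives. BnaC03G0202400ZS, on C03, was named after its values were seen, as the next widest, with 5.205, 8.12 and 0.747 RPKM in susceptible controls. In all, the range was at least 1 log2 unit in 24 members among susceptible and in 10 among resistant controls. The median range was 0.57 log2 units among susceptible and 0.49 among resistant controls. The median member was at 2.06 RPKM in the former and 1.40 RPKM in the latter, and the part of level in these ranges was not tested. They were not computed for all tested genes.

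Among submerged replicates, the members with the widest range were BnaA02G0401000ZS, BnaA03G0373800ZS and BnaC08G0132300ZS. In the second susceptible submerged library BnaA02G0401000ZS stood at 230.4 RPKM and the others at 63.3 and 49.7 RPKM. BnaA03G0373800ZS, on A03, was high in the same library, with 63.8, 186 and 47.8 RPKM, against 37.6, 62.2 and 33.5 RPKM in the resistant pool. It was at 0, 0.219 and 0.122 RPKM in resistant and 0.223, 0.466 and 0.438 RPKM in susceptible controls. BnaC08G0132300ZS, on C08, was low in that library, with 179, 55.8 and 103 RPKM, so the library was not simply high for all members. BnaC03G0115400ZS, on C03, was low in the first resistant submerged library, at 27.01, 60.7 and 70.5 RPKM, and stood at 61.7, 90.8 and 79.2 RPKM in the susceptible pool. The steadiest members were BnaA05G0011400ZS, BnaA04G0066900ZS and BnaC04G0188900ZS. Of these, BnaA05G0011400ZS was at 18.03, 19.4 and 19.6 RPKM in resistant and 16.7, 16.3 and 18.95 RPKM in susceptible submerged seedlings. The median range among 3 submerged replicates was 0.54 log2 units for resistant and 0.59 for susceptible seedlings.

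The members were spread over all 19 chromosomes, 38 on the A and 55 on the C subgenome, which is 0.149% of the 25449 tested A genes and 0.205% of the 26845 tested C genes. C03 held 14 members, A03 and C01 held 9 each, A05 and C04 held 7 each, and A06 and C06 held 1 each. As a share of tested genes, C01 had the most, 0.346%, followed by C03 with 0.324% and A03 with 0.262%, and A06 the fewest, 0.0374%. The numbers per chromosome are small and were not tested.

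In the order given by the identifiers, no member was next to another, nor was any pair separated by a single listed gene. Neighbours on a chromosome were a median of 374 listed genes apart, but 7 of the 74 neighbouring pairs had at most 10 listed genes between them and 9 at most 25. These pairs were named after the spacing was seen. The closest was BnaC03G0457300ZS and BnaC03G0457600ZS on C03, with 2 genes between. BnaC03G0457600ZS was at 19.6, 4.16 and 6.61 RPKM in resistant controls and 193, 293 and 205 RPKM after submergence, and both genes of the pair were highest in the first of the resistant controls. A further pair on C03, BnaC03G0114800ZS and BnaC03G0115400ZS, had 5 genes between, and a pair on A03, BnaA03G0100800ZS and BnaA03G0101500ZS, had 6. In both, the second gene was lower in every control than the first. BnaA03G0100800ZS was at 13.9, 7.16 and 8.03 RPKM in resistant controls and BnaA03G0101500ZS at 0, 0.356 and 1.09 RPKM. BnaC01G0499200ZS and BnaC01G0497500ZS, the member with the largest rise and the one with the largest mean pool difference towards the resistant pool, lay 16 listed genes apart on C01.

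The genes directly next to members mostly did not rise with them. Of the 186 direct neighbours 120 were tested, and they had a median change of 0.040 for resistant and 0.0092 for susceptible seedlings, against -0.21 and -0.19 for all tested A and C genes. A change of at least 1 in both pools was found in 10 of the 120, or 8.33%, against 4.45% of all tested A and C genes. A change of at least 2 in both pools was found in 3 neighbours, against 0.912% of all tested A and C genes. BnaC04G0105400ZS, next to the member BnaC04G0105300ZS on C04, had changes of 2.99 and 2.48. The others were BnaA05G0089300ZS, with 2.76 and 2.16, and BnaC07G0221200ZS, with 2.56 and 2.39. All of them were named after their values were seen.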

How the data were processed

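PolyA RNA of whole seedlings was sequenced, and the deposited table gives RPKM per gene for 12 libraries, made by the authors; HISAT2 and StringTie are named in the submitters' processing notes, without versions or parameters. Absolute depth is not known, and relative depth was read from the steps between low values. All columns could be mapped to samples (0 were unmapped). A gene was tested if 3 or more libraries reached 1 RPKM, on log2(RPKM + 1) with limma 3.58.1 in R 4.3.3 (trend, 12 libraries in 1 fit, Benjamini-Hochberg over 57391 genes, adjusted p under 0.05). The procedure was tested on simulated data. Fold changes on this scale understate those of low genes. The labels call the replicates biological; each mixes 5 germplasm, and p-values measure the spread between such mixtures. With 3 libraries a group, an exact permutation test of 1 gene cannot go below p = 0.1. Members and lists were chosen with earlier results of these data known. Named were, by rule, the 10 members with the largest change in the pool where they rose less, the 5 and 3 most abundant under water and in controls, up to 3 called per pool difference and direction, the 3 on each side of the limit, the 3 widest and 3 narrowest in submerged range, and those listed at 0 most often; others are said to be named after their values were seen. Alternatives were another added constant, 2 scalings, 2 filters, a replicate block, only the groups compared, other limits, and leaving out each library. The cell composition could not be checked against markers, since the identifiers carry no names. The reference table had 123214 genes and 0 identifiers matched.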

Additional observations from a re-analysis of the deposited data

Results flagged for a closer look

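Outside the A and C chromosome identifiers, 4 of 12693 scaffold or newly assembled genes also rose by at least 3 log2 units in both pools; they were set apart because they belong to data that the choice of members did not use. Brassica_napus_newGene_13613 rose by 3.49 (resistant) and 3.12 (susceptible), Brassica_napus_newGene_2309 by 3.13 and 3.01, Brassica_napus_newGene_10087 by 3.20 and 3.49, and Brassica_napus_newGene_1397 by 3.22 and 3.29. In each of these genes the 6 submerged libraries were all above the 6 controls.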

How the results depend on the processing

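No pool difference for which a gene was named as called changed sign under the alternatives run. Other pool differences of named genes were not followed over the alternatives. Counts and shares were only sorted into moved or the same, with 39 values moved and 278 the same. With 0.1 RPKM added, 270 genes met the limit and the members so chosen held 0.0631% and 1.096% of the summed RPKM of resistant controls and submerged libraries and 0.102% and 1.34% of the susceptible ones; with limits of 2 and 4, 477 and 21 genes were members. Leaving out 1 library gave 83 members (without the third susceptible control) to 105 (without the second), and all 93 were called in both responses each time. For genes chosen on the other replicates and read in the first, 92.3% changed by at least 2 in both pools with 0.1 RPKM added.

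Members called higher in resistant controls were 7 with 0.1 RPKM added and 2 with quantile normalization, with no filter or with only the groups compared, and those higher in susceptible controls were 21 with 0.1 RPKM added and 7 with no filter. Under water, 2 were higher in the resistant pool with 0.1 RPKM added or no filter and 3 with median ratio scaling or only the groups compared; 4, 2 and 12 were higher in the susceptible pool with 0.1 RPKM added, no filter and only the groups compared. Quantile normalization called 1 member for the difference in response. The cause was not tested in any of these. Leaving out 1 library gave 1 to 5 and 6 to 20 members in controls, 2 to 6 and 3 to 15 under water (resistant and susceptible pool higher), the libraries being named with those counts above, 4 to 7 and 15 to 26 for the mean, and 0 for the difference in response. Of tested genes, it gave 6.17% to 11.7% and 2.99% to 5.73% in controls and 5.91% to 12.9% and 2.46% to 5.47% under water. For the mean it gave 16.5% to 23.0% and 7.37% to 10.1% of tested genes. It also gave 56.6% to 60.95% of members on C chromosomes, 91.3% to 97.1% and 95.8% to 97.6% of the genes chosen in the resistant and susceptible pool with a change of at least 1 in the other, and shares of 0.0375% to 0.0426%, 0.768% to 0.852%, 0.0557% to 0.0799% and 0.951% to 0.999% of summed RPKM, in the group order above.

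Whether the replicate numbers pair the samples is not known. Deviations correlated at -0.34 to 0.39 over 18 pairs of libraries with the same number and at -0.34 to 0.46 over 36 with different numbers. Over the 6 pairs with the same number within a pool the range was -0.31 to 0.39. The deviations of the 3 libraries of a group sum to 0, which ties these correlations together, so the ranges cannot decide it. With the replicate number as a block, 3 and 10 members were called in controls, 6 and 7 under water, 6 and 17 for the mean, 0 for the difference in response and 93 for each response. Depth is known only in relative terms and limits the lowest control values.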
